A study of Mus musculus with 3 samples.

Results

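Among the sequenced lumbar cord microglia, 164 cells of library 2 carried at least 4000 transcript counts and not a single count of 9 proliferation genes. They were chosen by readouts of the single-cell RNA sequencing itself. The first was a total of at least 4000 unique molecular identifiers (UMIs, each standing for 1 captured transcript). The second was the absence of any UMI of Mki67, Top2a, Birc5, Cdk1, Ube2c, Hist1h2ap, Ccna2, Tk1 and Rrm2. They made up 5.10% (95% interval 4.36 to 5.91) of the 3218 library 2 cells of that depth, 4.57% of all 3591 library 2 cells, and a small share of the 7522 cells in the data. They are called here the cells without the 9 genes, because UMIs of other cell cycle genes were counted in them, as they were, at lower levels, in library 1 cells without the 9 genes.

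The study asked how microglia start to divide after a peripheral nerve is cut. The sorted cells were the YFP (+) cells of the lumbar cord. They came from young adult C57BL/6 mice, heterozygous for Cx3cr1-creER-yfp/+, that were naive or had undergone sciatic nerve transection 24 h or 48 h earlier. Each of these 3 groups was sequenced as 1 library from 3 pooled animals, so there are no replicates and no test between libraries was possible. All 3 groups carry the same allele, in which the Cx3cr1 promoter drives creER and YFP. The sort therefore takes any Cx3cr1-active cell, and all animals keep 1 intact copy of Cx3cr1. Cells of the libraries are told apart only by a barcode suffix, and nothing in the sources used here ties a suffix to a group, so the libraries are called 1, 2 and 3, of unknown time point. Any difference between libraries given below cannot be told apart from a difference in the handling of 1 library.

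Dividing cells copy their DNA in S phase with a set of helicases, polymerases and nucleotide-making enzymes, and then separate the copies in mitosis with kinetochore, spindle and cyclin B proteins. Most of these genes are transcribed in waves, replication genes before and during S phase and mitosis genes in G2 and M, and are nearly silent in resting cells. Adult microglia rarely divide in the uninjured cord, but they multiply in the lumbar segments that receive the axons of an injured sciatic nerve. Of the 9 genes of the rule, Tk1 and Rrm2 make nucleotides for DNA synthesis and Hist1h2ap encodes a replication-dependent histone. Top2a untangles DNA, Cdk1, Ccna2 and Ube2c drive and end mitosis, Birc5 belongs to the chromosomal passenger complex, and Mki67 encodes the marker Ki67.

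The absence of the 9 genes was the exception in library 2. Among its 3218 cells with at least 4000 UMIs, Top2a was counted in 56.1%, Birc5 in 47.0%, Hist1h2ap in 46.8%, Mki67 in 37.1% and Tk1 in 33.1%. Ube2c was counted in 28.4%, Rrm2 and Cdk1 in 22.9% each, and Ccna2 in 18.7%. In library 3, 2124 of 2912 cells of the same depth (72.9%, 71.3 to 74.5) met the rule, and each of the 9 genes but Hist1h2ap (21.0%) was found in 2.58% of cells or fewer. Library 1 was too shallow for the rule, with 9 cells of at least 4000 UMIs, 6 of them without the 9 genes. At a lower minimum of 2000 UMIs, 90.0% of 408 cells of library 1, 6.47% of 3569 cells of library 2 and 74.3% of 3284 cells of library 3 had none of the 9 genes. All intervals on shares are exact binomial (Clopper-Pearson), those on summed counts are exact Poisson, and neither takes account of differences between animals.

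The cells without the 9 genes were the low end of a continuous range. In library 2 the 9 genes together gave a mean of 6.53 and a median of 3 UMIs per cell, with a highest value of 126. Besides the 164 cells with none, 430 cells (13.4%) had 1 UMI, 567 (17.6%) had 2, 583 (18.1%) had 3, 1027 (31.9%) had 4 to 9 and 447 (13.9%) had 10 or more. The number of cells rose at each step from 0 to 3 UMIs, and the commonest value in library 2 was 3, whereas in library 3 it was 0.

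**Figure D1:**
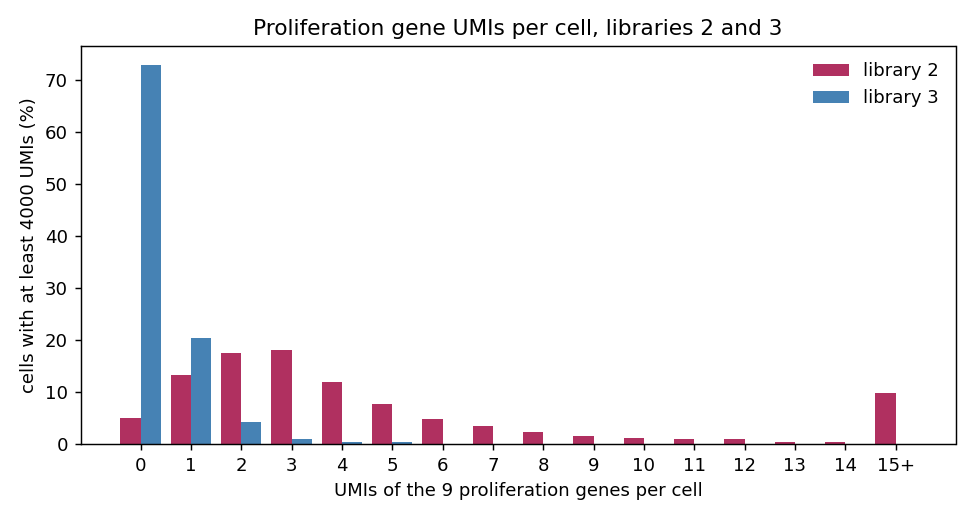
Share of cells with at least 4000 UMIs (y axis, %) by the summed UMIs of the 9 genes in the cell (x axis, the last bar is 15 or more), for library 2 (3218 cells) and library 3 (2912 cells). Library 2 peaked at 3 UMIs with 5.10% of cells at 0, while 72.9% of library 3 cells were at 0.

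Depth entered the choice. The share of library 2 cells without the 9 genes was 10.2% (67 of 657) at 4000 to 5000 UMIs and 6.82% (55 of 806) at 5000 to 6000 UMIs. It was 3.70% (33 of 892) at 6000 to 8000 UMIs, 1.39% (9 of 646) at 8000 to 12000 UMIs and 0 of 217 above that, which allows a share of up to 1.38% by the limit of 3 counts and of 1.69% by the exact interval. The share was lower in each deeper class of library 2, and in library 3 it ran from 77.8% in the shallowest class to 27.1% in the deepest. Deeper cells of library 2 also held more of the 9 genes per UMI. From the shallowest to the deepest class these stood at 504, 505, 666, 1253 and 1728 CPM before thinning. Accordingly, the cells without the 9 genes had a median of 5277.5 UMIs (4012 to 10634) and the 447 cells with 10 or more UMIs of the 9 genes a median of 10233. When every cell was first reduced at random to 4000 UMIs, 11.5% of all library 2 cells met the rule. To compare levels at an equal number of counts, each cell was thinned to 2000 UMIs, which left out 201, 22 and 38 shallower cells of libraries 1, 2 and 3. Thinning evens the total counted per cell and no other difference between cells of different depth. Levels are counts per 1000000 UMIs (CPM) summed over the thinned cells of a group.

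Cells just inside and just outside the rule resembled each other. The 29 chosen cells less than 500 UMIs above the minimum had 1862 CPM of a list of 66 DNA replication genes and 1397 CPM of a list of 65 mitosis genes, both without the 9 genes. The 29 cells less than 500 UMIs below it and with none of the 9 genes had 2052 and 1379 CPM. The 430 cells with 1 UMI of the 9 genes had 2127 and 1395 CPM.

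The chosen cells were microglia by their markers. Before thinning, P2ry12, the purinergic receptor of surveying microglia, Tmem119, Csf1r, the receptor that microglia need to survive, Cx3cr1 and Fcrls were each counted in all 164 cells, and Siglech in 162. Sall1, a transcription factor of microglial identity, was counted in 58. At equal depth P2ry12 stood at 2521 CPM (2352 to 2699), beside 2391 CPM in the other library 2 cells and 4013 CPM in library 1, and Tmem119 at 3488, 3453 and 2732 CPM. The reference groups throughout are the 3405 other library 2 cells with at least 2000 UMIs, and the 408 library 1 cells of that depth. Quality measures of the cells without the 9 genes were close to those of the rest of library 2. They had a median of 1109 genes per cell at 2000 UMIs (1115 in the other library 2 cells and 1112 in library 1) and a median mitochondrial share of 1.47% (1.52% and 0.925%).

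Markers of other cell types were at or near 0 in the cells without the 9 genes, apart from single genes. Monocyte, T and NK cell and fibroblast lists each gave 0 UMIs in 328000 thinned UMIs. For the thinned counts this allows up to 9.15 CPM by the limit of 3 counts and 11.2 CPM by the exact interval. Before thinning these lists were not at 0. A UMI of the T and NK cell list was counted in 11 of the 164 cells, of the monocyte list in 2 and of the fibroblast list in 1. None of these cells carried more than 1 UMI of a list. Gzma of the T and NK cell list had 6 UMIs, in 6 cells. The neuron list gave 1 UMI. Of the perivascular macrophage list, all 64 UMIs were Stab1, while Mrc1, Cd163 and Lyve1 were at 0, and of the B cell list all 25 UMIs were Cd79b. The oligodendrocyte list gave 52 UMIs (159 CPM, against 154 CPM in other library 2 cells and 146 CPM in library 1), with Cnp at 33, and the astrocyte list 32 UMIs, with 31 of Slc1a3. The endothelial list gave 14 UMIs, 9 of them Pecam1, and before thinning 19 of the 164 cells carried at most 1 UMI of it, against 411 of 3405 other library 2 cells with up to 3 UMIs. The erythroid list gave 16 UMIs, led by the embryonic globins Hbb-y (7) and Hbb-bh1 (3), and before thinning 14 of the 164 cells carried a UMI of it, against 254 of 3405 other library 2 cells and 0 of 408 in library 1. At equal depth, in the single random draw used, the endothelial list was 2.14 times (counting interval 1.14 to 3.71) its level in the other library 2 cells. The shares of cells with a UMI of the endothelial list before thinning, given above, were close to each other. The erythroid list was at 1.87 times (1.04 to 3.12) and the perivascular macrophage list at 1.33 times (1.02 to 1.72). These intervals take UMIs as independent. The 16 erythroid UMIs lay in 10 cells, 1 of which held 5, so the erythroid interval is too narrow. The T and NK cell list was at 0 (0 to 0.735) in this draw. Before thinning a UMI of it was counted in 218 of the 3405 other library 2 cells, beside the 11 of 164 above. Of its 106 thinned UMIs in those 3405 cells, 1 cell held 30, which the interval does not allow for. Intervals of the remaining lists of other cell types included 1. The part of such transcripts in the comparisons was not tested. A total of 5 barcodes were shared by libraries 1 and 2, 3 by libraries 1 and 3, and 19 by libraries 2 and 3, and 1 chosen cell was among each of the sets that involve library 2.

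Replication and mitosis genes outside the rule were counted in every cell without the 9 genes. Each of the 164 cells held 3 to 38 UMIs (median 10) of the 66 replication genes and 2 to 19 UMIs (median 8) of the 65 mitosis genes before thinning. All 66 and all 65 genes were counted at least once among these cells. A stricter rule that also required no UMI of both lists therefore left 0 cells. This was nearly so in the 2124 library 3 cells that meet the rule, of which 2114 held a UMI of the replication list (median 7) and 1923 one of the mitosis list (median 2).

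At 2000 UMIs per cell the replication list stood at 1899 CPM (1753 to 2055) in the cells without the 9 genes, 2649 CPM in the other library 2 cells, 865 CPM in library 1 and 1267 CPM in the library 3 cells that meet the same rule. The summed level was 2.20 times that of library 1 (counting interval 1.97 to 2.45) and 0.72 times that of the other library 2 cells. Of the 66 genes, 58 were above and 7 below their library 1 level, and 11 were above and 55 below that of the other library 2 cells.

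The mitosis list stood at 1421 CPM (1295 to 1556), against 1953 CPM in the other library 2 cells, 425 CPM in library 1 and 424 CPM in the library 3 cells that meet the rule. This was 3.34 times library 1 (2.90 to 3.85) and 0.73 times the other library 2 cells. Of its 65 genes, 57 were above and 3 below library 1, and 10 were above and 55 below the other library 2 cells. The cells without the 9 genes thus lay between library 1 and the rest of library 2 on both lists, nearer to the rest of library 2. Against the 9 library 1 cells with at least 4000 UMIs the ratio was 0.877 for replication and 1.42 for mitosis. A single one of these 9 cells, with 23 UMIs of the 9 genes, gave 20 of their 39 thinned replication UMIs and 17 of their 18 mitosis UMIs. Without it the ratios to the other 8 cells were 1.60 (1.02 to 2.67) and 22.7 (4.06 to 900), the latter from 1 mitosis UMI in library 1, and without it among all library 1 cells they were 2.25 and 3.50. Without cells that share a barcode with another library the ratios were 2.20 and 3.35.

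The counts of single cells had little spread beyond sampling. At 2000 UMIs, the replication list gave 1 to 11 UMIs per cell, with a median of 4, in the cells without the 9 genes, and the variance over the mean was 1.07, where 1 is the value of random sampling from a common level. Thinning itself brings this value closer to 1. The mitosis list gave 0 to 7 UMIs with a median of 3 and a variance over the mean of 0.84, and 92.7% of cells had at least 1 UMI. In the other library 2 cells the variance over the mean was 2.30 and 2.83, with up to 23 and 28 UMIs in a cell. The rule leaves all cells with many UMIs of the 9 genes in that group, so this difference in spread is part of the choice. In the library 3 cells that meet the rule the spread was also low, at 1.29 for replication and 0.998 for mitosis, as it was in the 367 library 1 cells of at least 2000 UMIs without the 9 genes, at 1.16 and 1.07. In library 1 as a whole, 54.4% of cells had a UMI of the mitosis list. No subset of the 164 cells stood at 0 for replication genes. No cell type that should lack these transcripts was set apart within library 2, so the part of free RNA in these low, evenly spread counts was not tested.

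**Figure D2:**
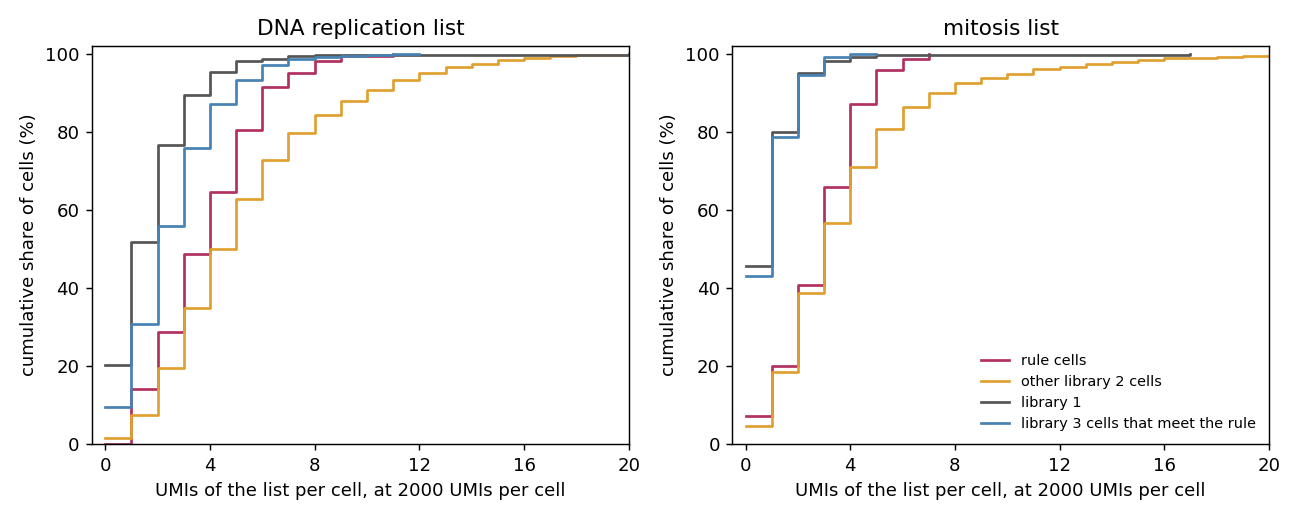
Cumulative share of cells (y axis, %) by the UMIs of the DNA replication list (left) and of the mitosis list (right) in a cell thinned to 2000 UMIs (x axis), for the 164 cells without the 9 genes (rule cells), the 3405 other library 2 cells, the 408 library 1 cells and the 2124 library 3 cells that meet the rule. The rule cells end by 11 and 7 UMIs and mostly lie between library 1 and the other library 2 cells, close to the latter up to 2 UMIs of the mitosis list.

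The level of the mitosis list differed little over the low classes of the 9 genes, and that of the replication list was somewhat higher with each UMI. Replication genes stood at 1899, 2127, 2152 and 2296 CPM in library 2 cells with 0, 1, 2 and 3 UMIs of the 9 genes, at 2681 CPM in those with 4 to 9 and at 4653 CPM in those with 10 or more. Mitosis genes stood at 1421, 1395, 1496 and 1452 CPM, then 1687 and 4628 CPM. From 0 to 3 UMIs the intervals of the mitosis list overlapped. That of the replication list at 0 UMIs (1753 to 2055) did not overlap those at 2 UMIs (2067 to 2239) and 3 UMIs (2210 to 2385). Homeostatic microglia genes ran the other way, from 88970 CPM in the cells without the 9 genes to 74811 CPM in those with 10 or more. As the 9 genes and these lists come from the same cells, the gradient is given as a description.

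**Figure D3:**
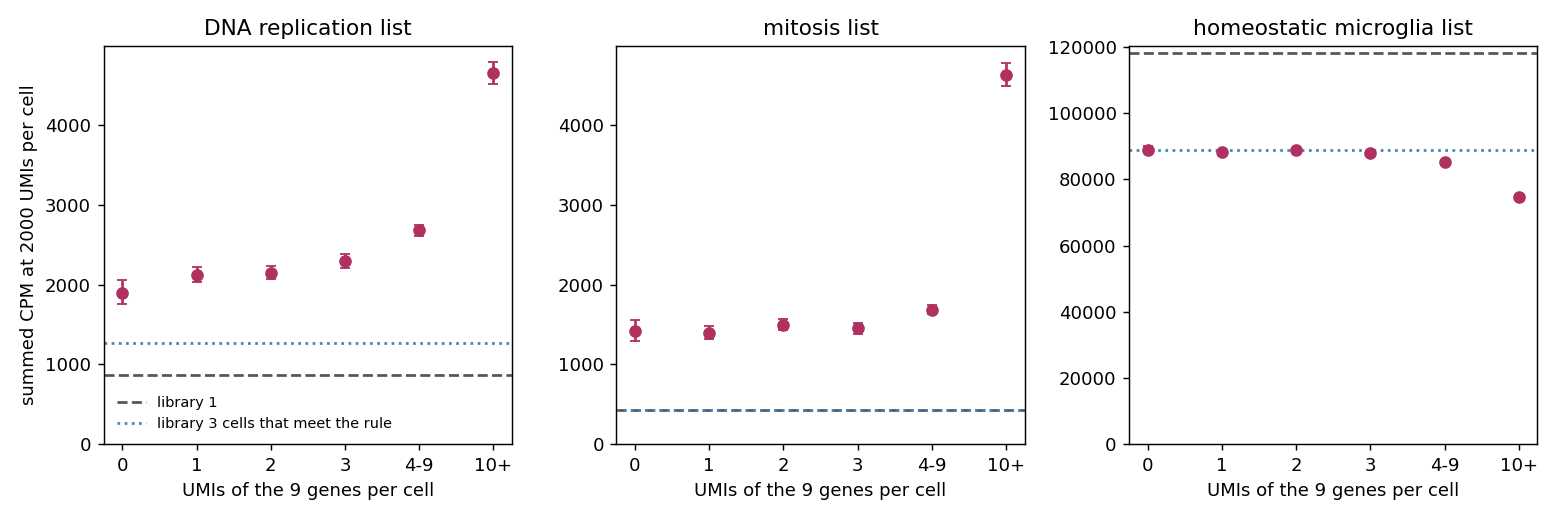
Summed CPM at 2000 UMIs per cell (y axis, from 0) of the DNA replication, mitosis and homeostatic microglia lists by the UMIs of the 9 genes in the cell (x axis), in library 2 cells with at least 4000 UMIs. Points are sums over cells, bars exact Poisson intervals, the dashed line is library 1 and the dotted line the library 3 cells that meet the rule; the mitosis level is near 1400 CPM at 0 to 3 UMIs and 4628 CPM at 10 or more.

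Single replication genes showed the same order. Tyms, which makes thymidylate for DNA synthesis, stood at 82.3 CPM (54.2 to 120) in the cells without the 9 genes, 111 CPM in the other library 2 cells and 18.4 CPM in library 1, a ratio to library 1 of 4.48 (2.30 to 9.06). Slbp, which binds histone mRNA and was the most abundant gene of the list, stood at 155, 210 and 109 CPM. Mcm6, a subunit of the replicative helicase, stood at 48.8, 49.9 and 9.80 CPM. Mcm5, of the same helicase, was at 24.4, 37.7 and 3.68 CPM, the last from 3 UMIs, with a ratio to library 1 of 6.63 (1.59 to 38.8). Pcna, the sliding clamp of the polymerases, was close to library 1, at 36.6 CPM (18.9 to 63.9) against 31.9 CPM, and below the 69.8 CPM of the other library 2 cells.

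Several mitosis genes were at 0 or close to 0 in library 1. Of the 24 genes of the list at 0 there, 19 were counted in the cells without the 9 genes. Cenpa, the histone of centromeres, stood at 42.7 CPM (14 UMIs in 13 cells), with 3 counts over library 1 taken as the limit of a count of 0, at least 11.6-fold above library 1, and Pbk, a mitotic kinase, at 39.6 CPM, at least 10.8-fold above it. Ccnb2, a mitotic cyclin, stood at 27.4 CPM (at least 7.46-fold). Cks1b, a subunit of cyclin-dependent kinases, stood at 61.0 CPM against 3.68 CPM from 3 UMIs in library 1, a ratio of 16.6 (4.92 to 87.2). Hjurp, the chaperone of Cenpa and the most abundant gene of the list, stood at 128 CPM, against 156 CPM in the other library 2 cells and 62.5 CPM in library 1. Among the 7 mitosis genes compared with the other library 2 cells, Cdca8, a partner of Birc5, differed most, at 36.6 against 76.2 CPM, a log2 ratio of -1.04 that was -0.47 with another random seed and -0.58 without thinning.

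The most abundant genes of the cell cycle groups were those of chromatin and tubulin that dividing cells raise but resting cells also use. The list of 28 genes stood at 5991 CPM, against 7140 CPM in the other library 2 cells, 3449 CPM in library 1 and 4883 CPM in the library 3 cells that meet the rule, and its sum was 1.74 times that of library 1 (1.64 to 1.84). Of 19 members compared with library 1, 6 were at least 2-fold higher and 0 lower, with a median log2 ratio of 0.84, where 3.06% and 3.3% of all genes compared were higher and lower. Stmn1, which destabilises microtubules (chr4:134468320-134473843, plus strand, GRCm38), was counted in 55.5% of the thinned cells and stood at 424 CPM (356 to 500), against 578 CPM in the other library 2 cells and 40.4 CPM in library 1, a ratio to library 1 of 10.5 (7.13 to 15.8). H2afz, a histone variant, stood at 930, 1117 and 317 CPM, a ratio of 2.93 (2.47 to 3.47). Tubb4b and Tubb5, which encode beta-tubulins, had ratios to library 1 of 3.21 (1.83 to 5.72) and 2.11 (1.73 to 2.57). Hmgb1, a chromatin protein found in most cells, stood at 393 CPM against 423 CPM in library 1.

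Cell cycle genes were also set beside the 447 cells with 10 or more UMIs of the 9 genes. Genes had to reach 100 CPM in those cells, where they are high, and the genes named were chosen after their values were seen, so their percentages are a description and nothing is read from their spread. Ccne2, a cyclin of S phase entry, was at 9.01% of its level in those cells (2.42 to 23.7) and Nusap1, a spindle protein, at 9.82%. Hmgb2 was at 22.6% (15.8 to 31.3), Stmn1 at 42.3% (35.1 to 50.7), H2afz at 49.4% and Tubb5 at 57.0%. Tuba1a was at 98.7%. Library 1 also differed by gene on this scale. Among these named genes it ran from 0.905% for Ccne2 and 0.987% for Nusap1 to 27.1% for Tubb5 and 75.2% for Tuba1a. Pbk and Cenpa were at 0 in library 1.

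Promoters were read for the 8 genes of the 3 cell cycle lists that were at least 2-fold above library 1 among the genes compared. They were Anp32b, H2afv, H2afz, Hjurp, Stmn1, Tubb4b, Tubb5 and Tyms. Of all genes compared, 3.06% were at least 2-fold above library 1. Stmn1, H2afz, Hjurp and Tyms were higher still in the other library 2 cells. That the 8 genes were high together follows from this choice and is not a result. A RefSeq promoter (GRCm38.p6, 250 bases before to 50 after the start) was read for 7 of them. Each was searched on both strands for the E2F site in the forms TTTCCCGC and TTTGGCGC, the CHR element TTTGAA and the CCAAT box, motifs that are known from promoters of cell cycle genes. The E2F forms were in none of the 7, TTTGAA was in those of Hjurp, H2afv and Tubb4b, and CCAAT was in all but that of Tyms. Of all 32544 mouse promoters in the table, 1.08% held TTTCCCGC, 0.519% TTTGGCGC, 17.8% TTTGAA and 37.4% CCAAT. The 7 promoters are few and were picked from these data, and the 32544 were not limited to genes compared here. The motif counts are therefore a description. The promoters of Tubb4b (chr2:25224653-25224952, minus strand) and of H2afz (H2az1 in RefSeq, chr3:137864237-137864536, plus strand) are shown because they held the most CCAAT boxes beside a CHR element and belong to the most abundant chromatin gene, respectively. Capitals mark TTTGAA and CCAAT or their reverse complements.
Tubb4b: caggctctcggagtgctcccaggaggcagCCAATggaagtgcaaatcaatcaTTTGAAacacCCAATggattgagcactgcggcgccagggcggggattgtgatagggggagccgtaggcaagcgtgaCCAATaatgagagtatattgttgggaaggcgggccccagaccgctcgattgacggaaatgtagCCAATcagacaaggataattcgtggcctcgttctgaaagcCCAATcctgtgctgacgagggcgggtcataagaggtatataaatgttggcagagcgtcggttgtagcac
H2afz: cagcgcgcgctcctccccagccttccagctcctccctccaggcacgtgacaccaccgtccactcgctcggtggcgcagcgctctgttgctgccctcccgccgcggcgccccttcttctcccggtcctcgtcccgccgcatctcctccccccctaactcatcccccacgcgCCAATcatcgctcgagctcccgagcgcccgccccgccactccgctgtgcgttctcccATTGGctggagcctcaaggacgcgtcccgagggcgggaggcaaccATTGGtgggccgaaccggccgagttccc

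The comparison with library 1 covered 3268 genes with a mean of at least 50 CPM over both groups, the 9 genes left out. In the cells without the 9 genes 100 of them were at least 2-fold higher (3.06%) and 108 at least 2-fold lower (3.3%), with a median log2 ratio of -0.00. Of these 208 genes 121 were past 2-fold with another random seed, and 70 genes were lower without thinning. Against the 9 library 1 cells with at least 4000 UMIs the counts were 420 higher and 808 lower. The other library 2 cells differed from library 1 by about as much, with 98 genes (3.03%) at least 2-fold higher and 77 (2.38%) at least 2-fold lower of 3239. Both comparisons use the same library 1 cells. Depth of the counts and library enter all of these values, and with 1 library each the library and its time point cannot be told apart.

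The 10 genes highest over library 1 belonged to different processes. Cd244, a receptor of the SLAM family on immune cells (chr1:171559193-171609746, plus strand, GRCm38), stood at 137 CPM (100 to 184), against 100 CPM in the other library 2 cells and 2.45 CPM (2 UMIs) in library 1, a ratio of 56.0 with an interval of 14.6 to 476. Stmn1 and Tyms, described above, were also among them. Fos and Dusp1, an early transcription factor and a phosphatase of MAP kinases, stood at 162 and 85.4 CPM, against 28.2 and 18.4 CPM in library 1. Klf2, a transcription factor also counted among the early genes, stood at 274 CPM against 66.2 CPM. Prdx4, a peroxidase of the endoplasmic reticulum, had a log2 ratio of 1.89, Naaa, a lysosomal amidase, of 1.81, Trappc1, a subunit of a vesicle tether, of 1.70, and 2700094K13Rik of 1.68. In the other library 2 cells Fos stood at 172, Dusp1 at 57.1 and Klf2 at 281 CPM.

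The 10 genes lowest against library 1 were mostly copies of other genes. Gm42726, annotated as an antisense RNA (chr5:65587716-65591440, minus strand), had 1 UMI (3.05 CPM) against 103 CPM in library 1 and 14.0 CPM in the other library 2 cells. Rpl13-ps3 stood at 33.5 CPM against 191 CPM, Rpl9-ps6 at 67.1 against 310 CPM and Rps27rt, a copy of a small-subunit ribosomal protein gene, at 271 against 974 CPM. Gm12166, Rpl27-ps3, Gm6133, Rpl10-ps3, Gm10036 and Gm9843 completed the set, with log2 ratios from -2.12 to -1.83. Of the 108 lower genes, 17 had names of pseudogenes or predicted genes, which were 38 of the 3268 genes compared. Reads of such copies may be shared with their parent genes, and reads of an antisense RNA with the gene it overlaps, so these levels are uncertain. Without such names, 99 genes were higher and 91 lower.

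**Figure D4:**
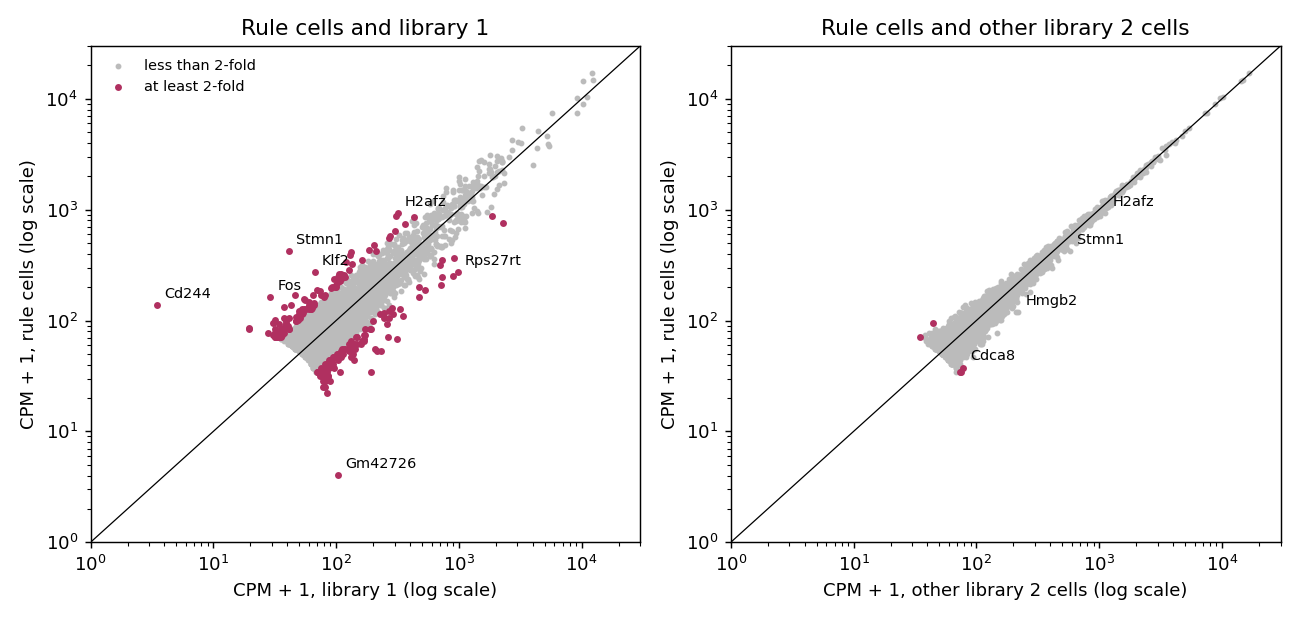
CPM + 1 at 2000 UMIs per cell (both axes logarithmic) of each compared gene in the cells without the 9 genes (y axis, rule cells) against library 1 (left, 3268 genes) and against the other library 2 cells (right, 3176 genes). Genes at least 2-fold apart are coloured, 208 on the left and 5 on the right, and Cd244, Stmn1 and Gm42726 lie farthest from the diagonal on the left.

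Homeostatic microglia genes were mostly lower than in library 1. The list summed to 88970 CPM, against 118137 CPM in library 1, 85887 CPM in the other library 2 cells and 88914 CPM in the library 3 cells that meet the rule. Of 31 members compared, 5 were above library 1, and the median log2 ratio was -0.27, beside -0.00 over all genes compared. Gpr34, a lysophospholipid receptor, was the 1 member past 2-fold lower, at 869 CPM (771 to 976) against 1850 CPM, a share of the list close to the 3.3% of all genes compared. Cst3, a cysteine protease inhibitor and the most abundant member, stood at 39360 against 61222 CPM in library 1. Entpd1, an enzyme that breaks down extracellular ATP, had a ratio to library 1 of 0.543 (0.403 to 0.720), Tgfbr1, a TGF-beta receptor, of 0.613 (0.528 to 0.710), P2ry13 of 0.616 (0.522 to 0.724) and Sall1 of 0.501 (0.331 to 0.736). Against the 9 library 1 cells with at least 4000 UMIs the median log2 ratio turned to 0.18, and to 0.085 without the cell with 23 UMIs of the 9 genes. Against the other library 2 cells the median log2 ratio was 0.06 and no member was past 2-fold, where 0.063% of all genes compared were at least 2-fold higher.

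The medians of metabolism and protein synthesis genes were above 0 against library 1. Of 70 nuclear oxidative phosphorylation genes compared, the median log2 ratio was 0.47, with 5 at least 2-fold higher, beside 3.06% of all genes compared, and 0 lower, among them Ndufb6 (91.5 against 38.0 CPM) and Uqcr11 (430 against 183 CPM), subunits of respiratory complexes. The list summed to 15982 CPM in the cells without the 9 genes, 16438 CPM in the other library 2 cells and 11105 CPM in library 1. The 12 mitochondrially encoded genes had a median of 0.42, with 0 members past 2-fold higher and 1 lower. The latter was mt-Atp8, which overlaps mt-Atp6, at 104 against 270 CPM, and mt-Nd1 stood at 1957 against 999 CPM. Ribosome biogenesis and MYC target genes had a median of 0.46 over 20 genes, 5 of them at least 2-fold higher, such as Nme1 (168 against 63.7 CPM) and Ppan (101 against 38.0 CPM). The 82 cytosolic ribosomal protein genes had a median of 0.29, with 1 past 2-fold up (Rpsa) and 2 down (Rpl6l and Rpl27), shares below the 3.06% and 3.3% of all genes compared. Glycolysis genes had a median of 0.39 over 11 genes, led by Pkm, the last enzyme of the pathway, at 387 against 129 CPM. In each of these lists the median against the other library 2 cells was between -0.13 and -0.01, and no member was past 2-fold.

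Early response and stress genes were above library 1 and below library 3, the early genes by far. The immediate early list stood at 2912 CPM in the cells without the 9 genes, 2757 CPM in the other library 2 cells, 2010 CPM in library 1 and 27304 CPM in the library 3 cells that meet the rule. Of its 10 genes compared with library 1, 4 were at least 2-fold higher (Fos, Dusp1, Klf2 and Ier2), beside 3.06% of all genes compared, with a median log2 ratio of 0.52. Jun, the most abundant member, stood at 619 CPM against 374 CPM in library 1 and 4973 CPM in the library 3 cells. Heat shock genes had a median of 0.67 over 8 genes, with 1 past 2-fold, the cytosolic chaperone Hsp90ab1 (643 against 300.2 CPM) and Hspa8 at 1119 against 582 CPM. The heat shock list stood at 3905 CPM, against 6804 CPM in the library 3 cells that meet the rule. Over 3182 genes compared with the library 3 cells that meet the rule, 25 were at least 2-fold higher (0.786%) and 88 at least 2-fold lower (2.77%) in the cells without the 9 genes.

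Immune genes went in both directions, and as 3.06% of all genes compared were at least 2-fold higher and 3.3% lower than in library 1, a single member past 2-fold in a list is not a result about that list. Tspo, an outer mitochondrial membrane protein used as a marker of activated microglia, stood at 412 CPM (345 to 487) against 132 CPM in library 1 and was the 1 activation gene past 2-fold of 19 compared. Of these 19 genes 13 were above library 1, with a median log2 ratio of 0.16 and a summed ratio of 1.12 (1.09 to 1.14). Apoe stood at 534 against 885 CPM and Cd9 at 1067 against 1822 CPM. Among 7 chemokines and cytokines, Ccl12 was higher (878 against 308 CPM) while Ccl3 (48.8 against 100.5 CPM) and Ccl4 (70.1 against 148 CPM) were lower. Of 10 interferon-stimulated genes, Ifitm3 was past 2-fold up (152 against 55.1 CPM) and Xaf1 past 2-fold down (36.6 against 94.4 CPM). MHC class I genes had the lowest median of the lists with at least 3 genes compared, -0.58 over 6 genes, with H2-T23 past 2-fold (48.8 against 137 CPM) and B2m at 3738 against 5438 CPM. The MHC class II list had a median of 0.19 over 3 genes, although Cd74, the invariant chain, was lower (54.9 against 112 CPM).

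The medians of complement, lysosome and growth control genes were close to 0, and their few members past 2-fold are to be read against the same 3.06% and 3.3% of all genes compared. The complement list had a median of 0.10 over 8 genes and no member past 2-fold, with C1qa, a part of the first complement component, at 17253 against 12140 CPM, and its summed level was 1.31 times that of library 1 (1.28 to 1.33). The 22 lysosomal genes had a median of 0.08, also with none past 2-fold. The 4 NF-kB genes had a median of -0.13 and none past 2-fold. Among 9 G1 cyclins and CDK inhibitors the median was 0.06, with Ccng2, a cyclin of resting cells, lower at 82.3 against 189 CPM, and Cdk4, which drives entry into the cycle, at 116 against 72.3 CPM. Of the 5 p53 targets, Sesn1 was lower (61.0 against 148 CPM), and Cdkn1a, an inhibitor of cyclin-dependent kinases, stood at 213 against 201 CPM. The 3 histone cluster genes had a median of -0.36, although Hist1h1c, a linker histone, was past 2-fold up at 82.3 against 30.6 CPM.

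Myc and Tnfaip3, on which the study centred, were too low for the comparisons with library 1 and the other library 2 cells. Myc, a transcription factor of growth and proliferation, was counted in 33 of the 164 cells before thinning and stood at 39.6 CPM (21.1 to 67.8), against 40.5 CPM in the other library 2 cells, 33.1 CPM in library 1 and 90.6 CPM in the library 3 cells that meet the rule. Tnfaip3, an inhibitor of NF-kB, was counted in 4 cells and stood at 12.2 CPM (3.32 to 31.2), against 7.64 CPM in the other library 2 cells, 24.5 CPM in library 1 and 28.5 CPM in the library 3 cells. The intervals of both genes against library 1 included a ratio of 1, at 0.567 to 2.40 for Myc and 0.124 to 1.49 for Tnfaip3, so no difference from library 1 was detectable at this depth. Against the library 3 cells Myc was past 2-fold lower, with a ratio of 0.437 (0.231 to 0.757), where 2.77% of genes compared were.

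Against the other library 2 cells, which the rule itself separates them from, hardly any gene with a mean of at least 50 CPM stood apart. Of 3176 genes compared, 2 were at least 2-fold higher (0.063%) and 3 at least 2-fold lower (0.0945%), and the central 90% of log2 ratios lay between -0.45 and 0.44. The higher genes were Arhgap12, a GTPase-activating protein (94.5 against 43.8 CPM), and Mvb12b, a subunit of the sorting complex of endosomes (70.1 against 33.9 CPM). The lower ones were Eif3l, a subunit of a translation initiation factor (33.5 against 73.4 CPM), Copa, a vesicle coat protein (33.5 against 72.1 CPM), and Cdca8. None of the 5 was past 2-fold when the cells were thinned with another random seed or not thinned. At a mean of at least 20 CPM, 45 genes were higher and 70 lower of 6007 compared.

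The next genes in this order were less than 2-fold apart. On the higher side they were Fyttd1, Slc38a9, Smpd5, Dph3, Flcn, Npepps, Trp53rka and Mrpl50, with log2 ratios from 0.96 to 0.80. On the lower side they were BC005561, Csnk2b, Hacd2, Cycs, Pcna, Suclg1 and Hmgb2, with log2 ratios from -0.99 to -0.87. Pcna and Hmgb2 are genes of dividing cells, and both belong to lists whose medians were below 0 in this comparison, at -0.43 for DNA replication (12 genes), -0.29 for mitosis (7 genes) and -0.26 for chromatin and tubulin genes (21 genes), beside 0.01 over all genes compared. As the rule removed 9 genes of the same processes, these lower values are part of the choice and not a separate result.

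**Figure D5:**
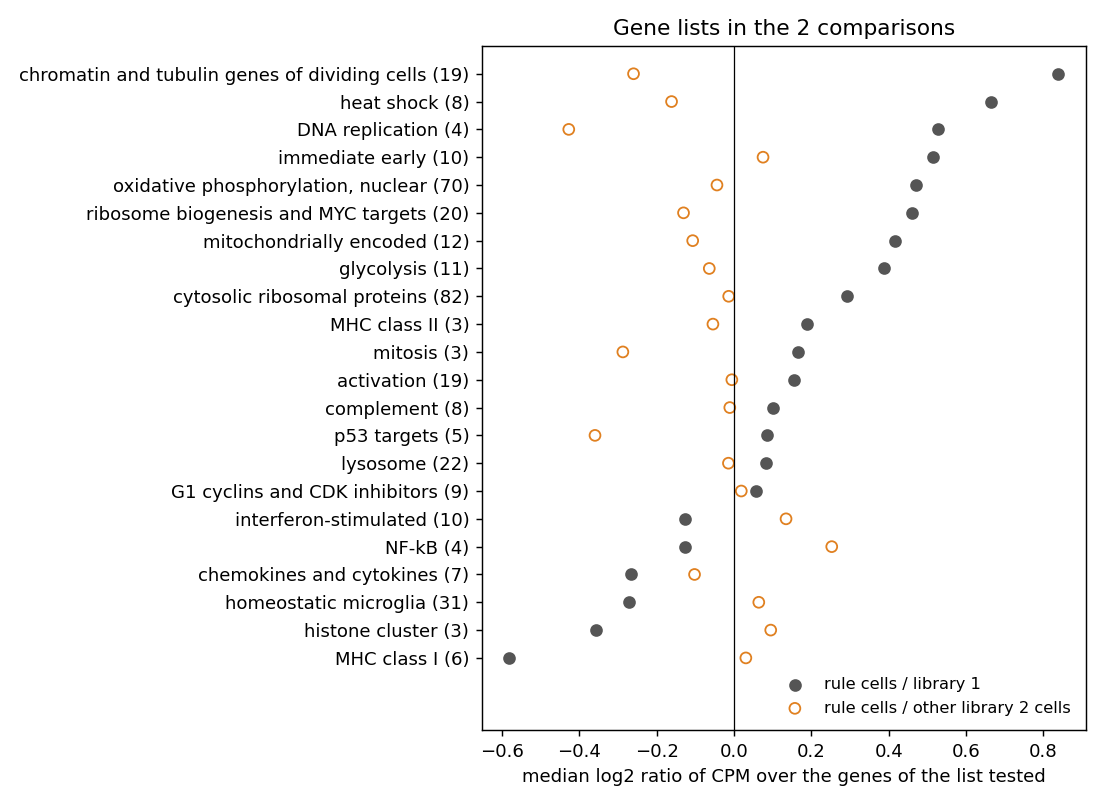
Median log2 ratio of CPM (x axis) over the compared genes of each list with at least 3 genes compared (y axis, with the number of genes compared with library 1) for the cells without the 9 genes (rule cells) against library 1 (filled) and against the other library 2 cells (open). Chromatin and tubulin genes are highest at 0.84 against library 1 and MHC class I genes lowest at -0.58, while the open points lie between -0.43 and 0.25.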

How the data were processed

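The authors deposited 1 matrix of UMI counts per gene and cell, without normalization, that joins 3 libraries of sorted lumbar cord cells (27998 genes, 7522 cells, 45209768 UMIs). Library 1 held 1343055 UMIs (median 2218 per cell), library 2 held 24097543 (5952) and library 3 held 19769170 (5742). The submitters' processing notes name Cell Ranger 2.1.1 and the build mm10 without a role. How cells were called, and whether reads were down-sampled, is not given in the sources used here. Per the methods, doublets were gated out during sorting, which does not remove droplets that took up more than 1 cell. No doublet caller was run and all cells were kept. No column belonged to an unmapped sample (0).

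Cells were thinned to 2000 UMIs without replacement (seed 1) and shallower cells were left out. Ratios of summed counts used a pseudocount of 1 CPM (per 1000000 UMIs), a mean of at least 50 CPM over both groups and a fold of 2, with exact conditional binomial 95% intervals. A count of 0 was given a limit of 3 counts over the group. As there was 1 library per suffix, no test was made. Since the rule uses the same cells, comparisons within library 2 are descriptions. Only the fold and interval step was tested on simulated counts, which held no differences between cells, no thinning and no choice by the rule.

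Named genes are the 10 highest and 10 lowest ratios of each comparison, the most abundant gene of each described list and up to 4 with the largest ratios, the 9 genes of the rule, 8 microglia genes, and Myc and Tnfaip3, of which 1 is not reported here. Other cell cycle genes with values (Mcm6, Mcm5, Pcna beside library 1, Cenpa, Pbk, Ccnb2, Cks1b, Hmgb1, Ccne2, Nusap1 and Tuba1a), and other list genes outside the rule, were chosen after their values were seen. The cells and the gene lists were chosen with earlier results of these data known. Gene positions are those of GENCODE M21 (GRCm38), matched for 27722 genes by Ensembl identifier, and 6 list symbols were not found under that name in the matrix. Alternatives were other UMI minimums, rules, seeds, thresholds and library 1 cells. Values were computed in Python 3.11.15 with pandas 2.3.3, scipy 1.17.1 and numpy 2.4.6.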

Additional observations from a re-analysis of the deposited data

How the results depend on the processing

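Of 70 values under an alternative setting, 37 stayed within the error or within 1.5 times the reported count, 30 moved and 3 changed direction. The cause was not tested except where the setting itself changes the number of cells or genes compared. The share of library 2 cells that met the rule (4.57%) was 5.76% at a minimum of 3000 UMIs, 1.17% at 6000 UMIs, 16.5% when 1 UMI of the 9 genes was allowed, 11.5% when the genes were read at 4000 UMIs per cell, and 0 when the replication and mitosis lists also had to be at 0, so that no other value could be computed under that rule. Against the 9 library 1 cells with at least 4000 UMIs, the replication ratio (2.20) changed direction to 0.877 and the homeostatic median log2 ratio (-0.27) to 0.18, the mitosis ratio (3.34) was 1.42, and 420 genes were higher and 808 lower. Without the 1 of these 9 cells with 23 UMIs of the 9 genes, the replication ratio was 1.60, the mitosis ratio 22.7 and the homeostatic median 0.085. Leaving that cell out of all library 1 cells gave 2.25, 3.50 and -0.27. With seed 2 the replication ratio was 2.52, the homeostatic median -0.36, and 5 genes were higher than in the other library 2 cells. Of the 208 genes past 2-fold against library 1, 121 were so with seed 2 and 100 without thinning. Without thinning 70 genes were lower than in library 1, the homeostatic median was -0.35, and 0 genes were higher than in the other library 2 cells. Against library 1 cells without the 9 genes the homeostatic median was -0.29. At a mean of at least 20 CPM, 276 genes were higher and 397 lower than in library 1, and 45 and 70 against the other library 2 cells. At 200 CPM these counts were 17, 16, 0 and 0, and at a fold of 1.5 they were 437, 438, 53 and 65. With a pseudocount of 5 CPM, 1 gene was higher than in the other library 2 cells. Leaving out that cell, cells that share a barcode with another library, and names of pseudogenes and predicted genes were chosen after seeing the data, and the latter 2 moved no value beyond those bounds. No paired analysis was possible because each group is 1 library and no replicate numbers pair them, and for the same reason no replicate could be left out. Depth sets a limit on a gene at 0, taken as 3 counts over the group. It was 9.15 CPM in the cells without the 9 genes and 3.68 CPM in library 1.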
